A study of Homo sapiens with 10 samples.

Results

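The cells described here were human microglia with high levels of immediate-early genes that did not belong to the cells highest in CCL3 and CCL4 chemokine transcripts. They were chosen in each library by expression scores. The immediate-early score was the mean over FOS, FOSB, JUN, KLF2, DUSP1, TSC22D3 and IER2 of the natural log of 1 plus the UMIs (unique molecular identifiers, counted transcripts) per 10000 human UMIs. The chemokine score was the same mean over CCL3, CCL4, CCL3L1 and CCL4L2, and its top 25% in a library are called the chemokine-high set. Members were the cells in the top 15% of the immediate-early score outside that set. The rule found 3961 members among 49989 human cells, which was 7.92%, and between 7.18% and 8.24% in the 5 libraries. It left out 3540 of the 7501 cells in the top of the immediate-early score, 47.2%, for their chemokine score. All other human cells, 46028 in number, are called the other cells.

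The study xenografted microglia made from the human embryonic stem cell line H9 (WA09) into the brains of AppNL-G-F mice, which carry a humanized mutant App gene and form amyloid plaques, and into AppNL-G-F Csf1rΔFIRE/ΔFIRE mice, called FIRE mice here, which in addition lack an enhancer of Csf1r and have no microglia of their own. Mice of the former kind are called intact mice, and their mouse microglia were depleted shortly after birth with BLZ945, an inhibitor of the CSF1 receptor, before the graft. Mice of both kinds lacked Rag2 and Il2rg, and so adaptive immunity, and carried human CSF1. From 4 months of age the mice received weekly intraperitoneal injections of 10 mg/kg Lecanemab, an antibody against soluble aggregates of the amyloid-β peptide, or of an IgG1 control antibody for 8 weeks. Cells of a hemisphere were isolated 1 day after the last dose and sorted on CD11b and human CD45. Actinomycin D (5 µM), a blocker of transcription, was present during collection and enzymatic dissociation. It was left out from the myelin removal step on, before staining and sorting. The mice were told apart by antibody-borne hashtags in 3 pools (libraries 1 and 2, library 3, libraries 4 and 5). There were 6 FIRE mice on Lecanemab, 5 FIRE mice on IgG1, 7 intact mice on Lecanemab and 9 intact mice on IgG1, of which 1 with a single human cell was left out of every comparison, so that 26 mice remained. The counts of mice are those of the labels, from which the study's own count for the FIRE mice on IgG1 differs. All human cells came from the same stem cell line, and no graft without App mutations or without antibody was analysed here. The libraries held 30879606 to 66405678 human UMIs over 8053 to 23375 barcodes. Between 14 and 49 barcodes recurred in any pair of libraries, at most 0.423% of the smaller one.

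Immediate-early genes are transcribed within minutes of a stimulus without new protein synthesis. FOS, FOSB and JUN encode subunits of the transcription factor AP-1, KLF2 encodes a zinc finger factor that restrains inflammatory gene expression, DUSP1 a phosphatase that switches off MAP kinases, TSC22D3 the glucocorticoid-induced leucine zipper GILZ, and IER2 a small nuclear protein. In microglia these transcripts are known both from physiological stimuli and from enzymatic dissociation of tissue, and the chemokines CCL3 and CCL4 are often induced together with them.

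The promoters of 3 of these genes and of EGR1, the leading gene outside the rule, are shown because they hold letters of elements known to answer to signals. The windows reach from 250 bases before to 50 bases after the RefSeq start on GRCh38.p14, on the strand of the gene, and capitals mark TGACGT on either strand (the core bound by CREB and ATF factors) and CArG boxes (the site of serum response factor). They lie at chr14:75278578-75278877 (plus strand) for FOS, chr19:45467746-45468045 (plus strand) for FOSB, chr5:172771146-172771445 (minus strand) for DUSP1 and chr5:138465229-138465528 (plus strand) for EGR1.
FOS: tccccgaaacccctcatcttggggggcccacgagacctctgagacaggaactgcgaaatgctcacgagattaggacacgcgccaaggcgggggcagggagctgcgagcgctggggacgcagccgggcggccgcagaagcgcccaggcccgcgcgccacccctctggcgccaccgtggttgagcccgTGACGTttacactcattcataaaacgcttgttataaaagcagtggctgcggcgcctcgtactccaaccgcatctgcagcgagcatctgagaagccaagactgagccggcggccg
FOSB: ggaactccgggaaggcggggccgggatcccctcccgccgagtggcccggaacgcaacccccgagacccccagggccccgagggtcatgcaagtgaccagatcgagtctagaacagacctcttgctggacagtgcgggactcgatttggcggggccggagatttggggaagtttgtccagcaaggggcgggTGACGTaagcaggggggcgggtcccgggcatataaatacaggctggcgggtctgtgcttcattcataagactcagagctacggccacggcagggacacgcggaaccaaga
DUSP1: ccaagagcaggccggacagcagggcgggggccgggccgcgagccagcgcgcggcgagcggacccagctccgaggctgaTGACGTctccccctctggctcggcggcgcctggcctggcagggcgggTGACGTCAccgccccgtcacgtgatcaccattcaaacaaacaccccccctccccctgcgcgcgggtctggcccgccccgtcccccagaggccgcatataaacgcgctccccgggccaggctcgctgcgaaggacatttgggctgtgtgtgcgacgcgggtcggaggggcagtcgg
EGR1: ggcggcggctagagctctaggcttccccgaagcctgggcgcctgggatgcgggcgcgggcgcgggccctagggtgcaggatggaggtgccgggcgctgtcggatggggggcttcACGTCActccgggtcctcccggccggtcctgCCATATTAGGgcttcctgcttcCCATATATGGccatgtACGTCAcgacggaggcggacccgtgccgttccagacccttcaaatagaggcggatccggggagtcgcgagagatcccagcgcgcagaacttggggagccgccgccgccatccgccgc
The TGACGT element began 64 bases before the start in FOS and 60 bases before it in FOSB. DUSP1 held 3 matches, of which 2 overlapped as the palindrome TGACGTCA, and EGR1 held 2 matches beside 2 CArG boxes. Of the 7 score genes, 3 (FOS, FOSB and DUSP1) held TGACGT in a window, against 9.64% of 27305 genes with RefSeq windows, and 4 held TATAAA on the gene strand (TSC22D3 was the other), against 8.99%. None of the 7 held a CArG box in a window, found for 1.60% of genes, or the AP-1 element TGANTCA, found for 9.37%. Sites more than 250 bases before the start were not searched, so this does not show that a gene lacks such an element. A match of letters in a window is a description and no evidence of binding.

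The values that chose the members are given without a test. The lowest immediate-early score that was accepted lay between 1.65 in library 2 and 1.91 in library 3, and in library 1 the member nearest the cutoff scored 1.6979 and the nearest cell outside it 1.6973. The cutoff cut through a continuous range, with 769 members (19.4%) and 817 cells below the cutoff within 0.1 of it, and the members are therefore a range of a score and not a separate type. When every cell was thinned to 1000 UMIs and the rule applied again, 58.6% of the members were chosen again.

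A low chemokine level, the other property by which such cells might be named, did not hold in these data. The median chemokine score of the members was 0.391 against 0.401 in the other cells of library 1 and 1.27 against 1.22 in library 3, and in libraries 4 and 5 the members also had the higher median. CCL3 had a UMI in 44.3% of members and 45.2% of other cells, and in 28.3% and 29.2% after thinning every cell to 1000 UMIs. The removal of the top 25% took the upper end of the chemokine range, above all for CCL4 (16.4% of members against 37.6% of other cells) and CCL4L2 (21.0% against 38.6%). The cells are therefore called immediate-early-gene-high cells outside the chemokine-high set, or members.

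FOS, the gene read highest among the 7, stood at 3086 CPM (UMI counts scaled to a common library total) in the lowest mouse, 3632 in the median mouse and 4594 in the highest mouse among members, and at 707, 1187 and 1892 CPM in the other cells of the same mice. The groups of mice did not overlap, and the median log2 ratio of members over other cells within a mouse was 1.62, with a range of 0.96 to 2.16. FOSB stood at 345, 435 and 552 CPM in members and at 85.6, 114 and 205 CPM in other cells, and JUN at 684, 1190 and 1620 against 175, 366 and 626 CPM. DUSP1 ran from 1100 through 1475 to 2381 CPM in members and from 241 through 425 to 839 CPM in other cells. Each of these genes was higher in members in 26 of 26 mice, with no overlap between the ranges.

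KLF2 lay at 546, 705 and 1127 CPM in members against 128, 179 and 374 CPM. IER2 lay at 927, 1211 and 1688 against 291, 382 and 638 CPM. TSC22D3 had the largest median ratio of the 7 genes, 2.22 on the log2 scale with a range of 1.68 to 2.90, at 161, 288 and 390 CPM in members and 32.9, 61.5 and 98.5 CPM in other cells. The same 7 genes were thus separated in each mouse whatever its genotype or antibody, as the rule required of the cells.

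**Figure D1:**
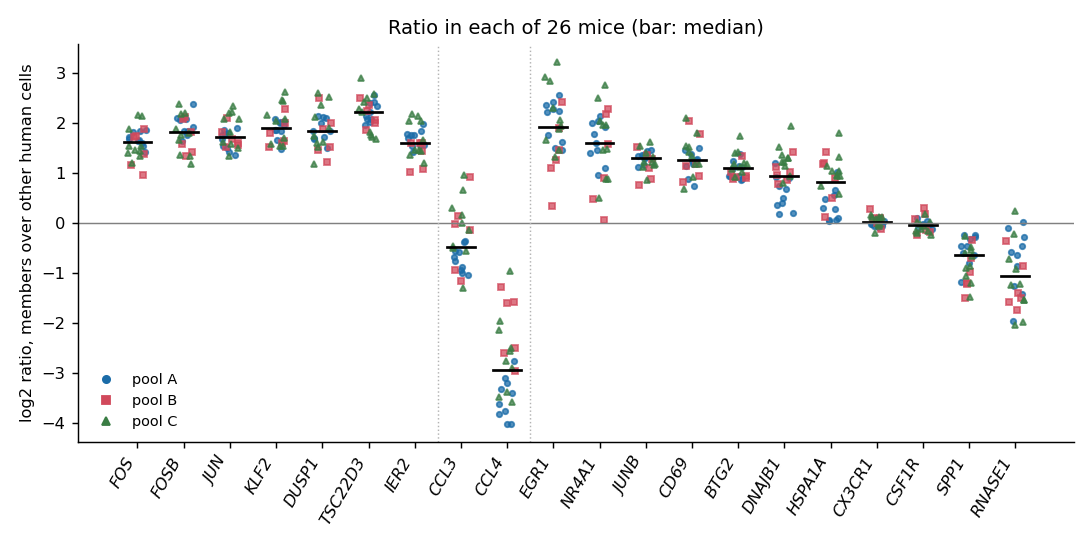
Log2 ratio of CPM in members over CPM in the other cells of the same mouse (y axis, 1 point for each of 26 mice, color and symbol by pool, black bar for the median) for genes used by the rule and genes outside it (x axis, dotted lines between the kinds of gene). The 7 score genes lay above 0 in every mouse, with medians from 1.60 (IER2) to 2.22 (TSC22D3), as did EGR1 with a median of 1.92, while SPP1 lay below 0 in 26 of 26 mice.

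How much of each ratio came from choosing cells on that same gene was measured by leaving the gene out of its own score. Cells chosen on the other 6 genes held 86.1% to 91.7% of the members. With TSC22D3 left out, the chosen cells still held 239 CPM of it against 68.2 CPM in the rest, a median log2 ratio of 1.83 (range 1.32 to 2.46). FOS stood at 3438 against 1242 CPM, a log2 ratio of 1.49 (range 1.06 to 2.01), when FOS took no part in the choice. The lowest of the 7 left-out ratios was 1.38, for JUN, and each of the 7 was above 0 in 26 of 26 mice. These ratios were below those with the gene in the score for each of the 7.

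Within single cells, members had a median of 6 of the 7 genes detected, against 3 in other cells, and 95.6% of members had 5 or more against 23.8%. All 7 were detected in 27.8% of members and in 2.85% of other cells. No member had fewer than 4. The rule chose the cells on the level of these 7 genes, so the counts describe the choice and test nothing. FOS had a UMI in 99.8% of members and 71.9% of other cells, and in 92.7% and 49.3% after thinning to 1000 UMIs. TSC22D3 had a UMI in 56.3% of members and 15.9% of other cells, and in 25.7% and 5.41% after thinning. The median depth was 3502 UMIs in members and 3422 in other cells. It was higher in members in library 1 (4012 against 3647) and library 2 (2865 against 2591) and lower in library 3 (3663 against 4131). As a background, 3708 barcodes of mouse cells, which should lack human transcripts, held a median of 94 human UMIs and had a human FOS UMI in 10.8% and a human TSC22D3 UMI in 0.593%. Human CCL4 and CCL3 had a UMI in 8.41% and 7.93% of these barcodes, at far lower depth than in the human cells.

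The 4 chemokines of the score encode secreted proteins that draw leukocytes. CCL4 lay at 25.2, 137 and 790 CPM (lowest, median and highest mouse) in members and at 291, 669 and 3709 CPM in other cells, higher in members in 0 of 26 mice. CCL3 lay at 195, 1040 and 1982 CPM in members and at 332, 841 and 3097 CPM in other cells, so that the ranges overlapped almost wholly, and members were the higher in 6 of 26 mice. The median log2 ratios were -0.47 for CCL3, -0.45 for CCL3L1, -2.37 for CCL4L2 and -2.93 for CCL4. When the chemokine-high set was taken out of the other cells as well, so that both sides had passed the same cut, CCL3 and CCL3L1 were the higher in members, with median log2 ratios of 1.35 and 1.52. CCL4L2 then had a ratio of 0.30 and CCL4 of -0.38. CCL3 and CCL3L1, and CCL4 and CCL4L2, are near-identical copies on chromosome 17, so the split of reads within each pair is uncertain.

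Genes outside the rule were compared between members and other cells of the same mouse as a description, a gene being called when its median ratio passed 1.5-fold with the same sign in 26 of 26 mice. Of 10780 genes, 42 were called higher (0.39%) and 4 lower (0.0371%), and the median log2 ratio over all genes was -0.04. The direction of a gene that travels with FOS is partly set by the choice of the cells, so the counts describe the members and test nothing. Against the other cells outside the chemokine-high set, 77 genes were called higher and 7 lower, and with cells thinned to 1000 UMIs 11 of 6862 genes were called higher and 0 lower.

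EGR1, a zinc finger immediate-early factor, led the genes outside the rule, at 56.8, 159 and 448 CPM in members against 15.5, 39.3 and 79.7 CPM in other cells (lowest, median and highest mouse). Its median log2 ratio was 1.92 with a range of 0.34 to 3.21, and a UMI was found in 24.0% of members, 7.65% of other cells and 0.512% of the mouse cells. The orphan nuclear receptors NR4A1 and NR4A2 followed with 1.59 (range 0.05 to 2.75) and 1.43. JUNB, a further AP-1 subunit, lay at 1037, 1224 and 1913 CPM in members and 380, 508 and 1007 CPM in other cells, without overlap. JUND (1.15) and the antiproliferative gene BTG2 (1.09) did not overlap either. CD69, a surface receptor of early activation, had a ratio of 1.25 and EGR3 a ratio of 1.13, and both were called. KLF4 had a ratio of 1.37 but was higher in 25 of 26 mice and was not called.

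Long non-coding RNAs were among the 15 leading genes. AC020916.1, listed as MIR23AHG in GENCODE, the host of the miR-23a cluster, had a median log2 ratio of 1.58 without overlap between members and other cells, and AC004687.1, listed as MIR142HG, the host of miR-142, had 1.22. LINC01220 (1.09) lies 12174 bases downstream of FOS on the same strand (chr14:75294404-75298109), and AC007952.4 had 1.16. MZF1-AS1 (1.19), ADAMTSL4-AS1 (1.18) and AL021155.5 (1.12) were not called. AC020916.1 overlaps ZSWIM4 on the opposite strand, MZF1-AS1 overlaps MZF1, and ADAMTSL4-AS1 overlaps ADAMTSL4 on the opposite strand and MCL1 on its own. The sources used here do not state how reads were assigned by strand, so reads of such genes may not be separable.

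By gene group, the early transcription factors outside the rule were often higher. Of 18 measured EGR, NR4A and KLF family genes 6 were called higher, with a median log2 ratio of 0.81, and of 12 AP-1 and ATF genes 2 were called higher (JUNB and JUND), with a median of 0.21. Genes of early mRNA decay and feedback, which end the early response, had 7 of 25 called higher and a median of 0.44. Among them were PPP1R15A (1.06), which directs dephosphorylation of eIF2α, RGS1 (1.06), a brake on G-protein signaling, and ZFP36 (0.99), the RNA-decay protein tristetraprolin. The shares of 6 of 18 and 7 of 25 stood beside the 0.39% of all genes.

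**Figure D2:**
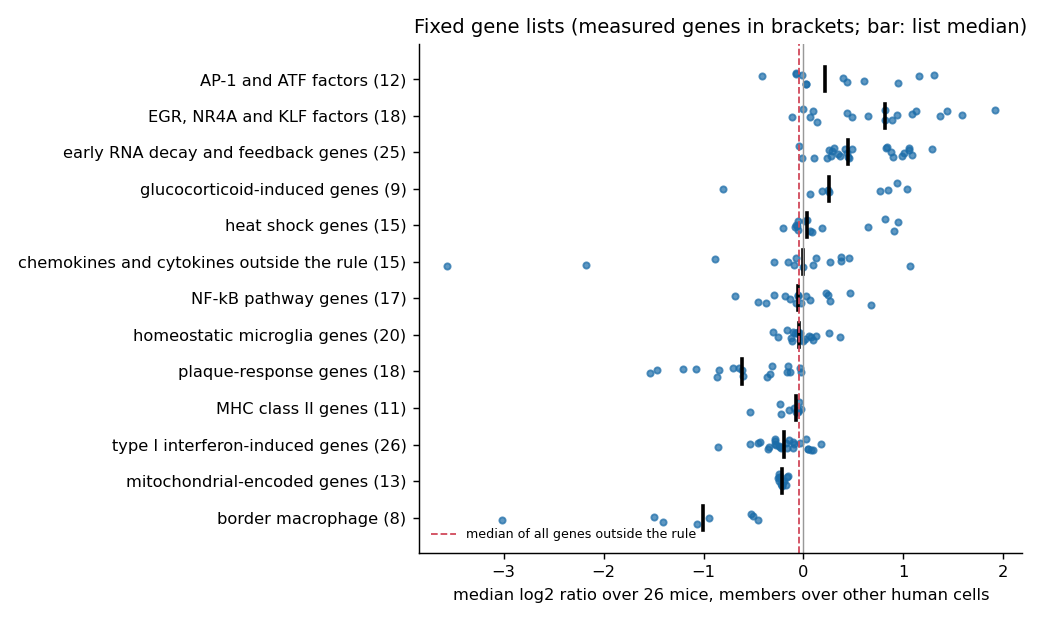
Median log2 ratio of members over other cells for the measured genes of each list (x axis, 1 small point per gene, mark for the median of the list) by gene list (y axis), with the median of all genes as a line. EGR, NR4A and KLF genes (median 0.81) and feedback genes (0.44) lay to the right, and plaque-response genes (-0.61) and border macrophage markers (-1.005) to the left.

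TSC22D3 is a classical glucocorticoid target. Of 9 measured glucocorticoid-induced genes outside the rule 2 were called higher, beside 0.39% of all genes, CEBPD (1.03) and the kinase gene SGK1 (0.76), and the median was 0.26. DDIT4, an inhibitor of mTORC1, had a ratio of 0.93 and PER1, a clock gene, 0.84, without a call. FKBP5, a chaperone of the glucocorticoid receptor, was too low to compare, at a median of 2.81 CPM in members and 5.46 CPM in other cells, with mice at 0. Against the other cells outside the chemokine-high set, 8 of 8 measured genes of the list had a median ratio above 0. Their median was 0.87, beside -0.03 for all genes.

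Heat shock genes had 2 of 15 called higher, beside 0.39% of all genes, with a median of 0.03, and the called genes were DNAJB1 (0.95), a co-chaperone of HSP70, and HSPA1A (0.82), an inducible HSP70. Both differed by pool. HSPA1A had a median log2 ratio of 0.28 at 379.8 CPM in members in the first pool, of 1.04 at 1628 CPM in the pool of library 3, and of 0.99 at 1636 CPM in the pool of libraries 4 and 5. DNAJB1 had ratios of 0.58, 0.99 and 1.26 in the same order. Both genes were higher in members in 26 of 26 mice, and the part of the pool in their levels was not tested.

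Inflammatory transcripts outside the rule had no call. None of 15 chemokines and cytokines was called in either direction against all other cells, with a median of 0.00 and 7 of 15 above 0. Among those at a mean of at least 20 CPM, the largest ratios were CXCL10 (-3.57), CCL8 (-2.18) and OSM (1.07). IL10 (0.46), IL1B (0.38) and TNF (0.12) had smaller ratios. None of 17 NF-κB pathway genes (subunits, inhibitors and targets) was called, with a median of -0.06. NFKBIA, the inhibitor that NF-κB induces, was nevertheless higher in 26 of 26 mice at a ratio of 0.47. NFKBID had a ratio of 0.68. With library totals in place of TMM scaling, which moved the median of all genes from -0.04 to 0.02, the medians of these lists became 0.06 and 0.03. The other cells here include the chemokine-high set, which the rule removed from the members alone. Against the other cells outside that set, the median was 0.31 for the chemokines and cytokines, with 11 of 15 above 0. It was 0.19 for the NF-κB pathway genes, with 12 of 17 above 0, beside -0.03 for all genes.

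Genes of the response to plaques pointed the other way. Of 18 measured genes 2 were called lower, beside 0.0371% of all genes, SPP1 (osteopontin) and GPNMB, and 0 of 18 had a median ratio above 0, with a median of -0.61. SPP1 lay at 2245, 5010 and 18840 CPM in members and at 5117, 8088 and 27266 CPM in other cells (lowest, median and highest mouse). The ranges overlapped between mice, and within a mouse members were lower in 26 of 26, by a median of -0.64 on the log2 scale. GPNMB lay at 0, 15.3 and 51.2 CPM against 17.4, 39.0 and 480 CPM. It was sparse, with no UMI in the members of some mice, so its ratio (range -6.53 to -0.21) depends on the prior count of 2. APOE (-0.31), CD63 (-0.37), APOC1 (-0.60), the lipase LPL (-0.62), LGALS1 (-1.07) and the tetraspanin CD9 (-1.21) were lower in the median mouse and not called, and LGALS3 had -1.54 at low levels. TXN, encoding thioredoxin, was called at -0.64.

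Other leading lower genes were sparse. CXCL10 (-3.57), F13A1 (-3.02), TOP2A (-2.68), CCL8 (-2.18), LILRB5 (-1.60), COLEC12 (-1.41) and CENPF (-1.24) had no UMI in the members of some mice, and none of these 7 was called. The fitted ratio of such genes depends on the prior count of 2. CD163, a scavenger receptor, was called at -1.50 (range -6.25 to -0.014). It was sparse as well, at a median of 9.24 CPM in members with mice at 0, so the same limit holds for it. Of 26 interferon-induced genes none was called, with a median of -0.20, and of 11 MHC class II genes none, with a median of -0.08.

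Microglial identity genes were read at like levels on both sides. Of 20 homeostatic microglial genes none was called, with a median of -0.04 (0.03 with library totals), P2RY12 at -0.04 and CX3CR1 at 0.02. The summed level of 19 microglial markers ran from 22362 through 26023 to 30107 CPM in members and from 23364 through 27011 to 31206 CPM in other cells, higher in members in 8 of 26 mice. The 8 border macrophage markers summed to 399, 869 and 1740 CPM in members against 540, 1474 and 2670 CPM, higher in members in 2 of 26 mice, and their part in the lower CD163 and F13A1 was not tested. Markers of other lineages were low or mixed. CD3D, CD3E and TRAC of T cells, the 3 mast cell markers, and MPO and ELANE of neutrophils were at 0 in members. The neutrophil list as a whole summed to 242, 420 and 514 CPM (lowest, median and highest mouse) in members and to 228, 365 and 488 CPM in other cells, higher in members in 24 of 26 mice, nearly all of it from CSF3R, the receptor of G-CSF, at a mean of 388 and 361 CPM. The oligodendrocyte list summed to a median of 119 against 95.6 CPM, higher in 20 of 26 mice and mostly MBP, and the dendritic cell list to 46.0 against 35.4 CPM, higher in 17. Monocyte markers summed to a median of 36.9 against 38.8 CPM and endothelial markers to 24.4 against 30.7 CPM, and the T and NK cell, erythroid, neuron and astrocyte lists stayed below 8 CPM in the members of each mouse. The part of these cell types in the results was not tested. Proliferation markers summed to a median of 20.2 CPM in members and 69.5 CPM in other cells.

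Measures of cell quality were set side by side. Members had a median of 1648 genes against 1588, 5.63% mitochondrial UMIs against 6.08% (6.86% against 8.01% in library 4 and 6.53% against 7.74% in library 5), and 0.761% mouse UMIs against 0.828%. The 13 mitochondrial genes all had medians below 0, with a list median of -0.22, and 2 of 78 ribosomal protein genes had medians above 0, with a list median of -0.23 and no call in either list. A filter at 2.5 median absolute deviations would have removed 3.18% of members and 7.21% of other cells. The part of these measures in the results was not tested.

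Splitting all human cells by both scores gave 3961 members, 3540 cells high in both scores, 8958 cells in the chemokine-high set alone and 33530 cells in neither. Levels are given as the median of the mice in CPM of library totals. FOS stood at 3739 CPM in members, 3933 in cells high in both, 1490 in chemokine-high cells and 784 in the remainder. EGR1 stood at 159, 136, 56.0 and 18.98 CPM in the same order and JUNB at 1273, 1306, 627 and 374 CPM. TSC22D3 was higher in members (291 CPM) than in cells high in both (234 CPM) in 21 mice. CCL3 stood at 1043, 4469, 2651 and 332 CPM, and members exceeded the cells in neither class in 26 of 26 mice. CCL4, at 135, 3379, 2767 and 158 CPM, was higher in members than in the cells of neither class in 9 of 26.

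**Figure D3:**
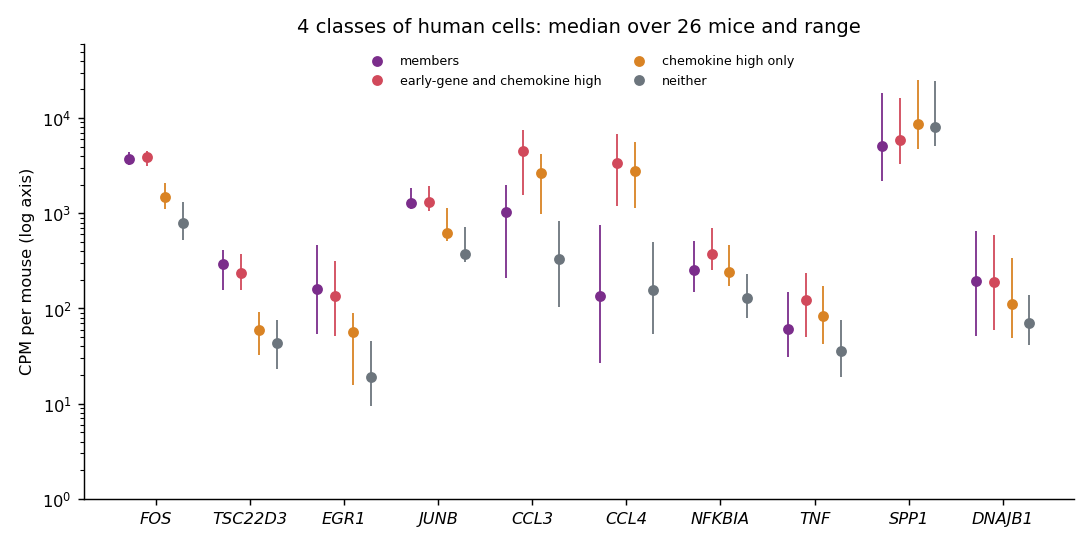
Median CPM over mice (y axis, log scale, range over mice as bars) of named genes in members, cells high in both scores, chemokine-high cells and cells in neither class. FOS, EGR1 and JUNB were nearly level between members and cells high in both, whereas CCL3 fell from 4469 to 1043 CPM and CCL4 from 3379 to 135 CPM.

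Transcripts that the scores did not use also ordered the classes. NFKBIA stood at 253 CPM in members, 374 in cells high in both, 243 in chemokine-high cells and 129 in the remainder. Members exceeded the remainder in 26 of 26 mice and cells high in both in 1. Against the remainder, members were also higher for OSM and IL1A in 26 of 26 mice, for CD83 in 25, and for TNF, IL1B and IL10 in 24. These were picked from the lists above, in which 11 of 15 and 12 of 17 genes had a median ratio above 0 against the remainder. Other genes of the lists were higher in few mice, such as CXCL10 (4 of 26), CCL8 (6), TGFB1 (6) and TNFAIP2 (7). TNF (61.6, 123, 83.4 and 35.5 CPM) and CXCL8 (8.9, 87.8, 32.8 and 5.4 CPM) were highest in cells high in both. SPP1 was lower in both immediate-early-high classes (5058 and 5857 CPM) than in chemokine-high cells (8609 CPM) and the remainder (8029 CPM). P2RY13, a purinergic receptor of homeostatic microglia, was higher in members (1651 CPM) than in each of the other 3 classes in 26 of 26 mice. It was picked from the homeostatic list, in which 6 of 20 genes had a median ratio above 0 against the remainder. P2RY12 was higher in members than in the remainder in 10 of 26 mice and CX3CR1 in 14.

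The share of members among human cells differed widely between mice. It ran from 2.05% to 16.6%, with a median of 6.68%, and within the 3 pools the highest mouse exceeded the lowest by 3.24-fold, 7.49-fold and 5.04-fold. The lowest mouse, an intact mouse on IgG1, had a Wilson 95% interval of 1.37% to 3.05%, and the highest, an intact mouse on Lecanemab, one of 14.7% to 18.8%, which cover counting error only.

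Shares were close between the libraries in which the same mouse was sequenced. For the 10 mice of libraries 1 and 2, the shares in the library pair correlated with r = 0.900 (permutation p = 0.00035, adjusted 0.0007) and rho = 0.867 (permutation p = 0.0022, adjusted 0.0044), and r was 0.798 without the 2 mice farthest from the median. The libraries of a mouse differed by a mean of 0.939 and at most 2.34 percentage points. For the 10 mice of libraries 4 and 5, r was 0.965 (permutation p = 0.00088), rho 0.794 (permutation p = 0.0088), and r 0.808 without the 2 farthest mice. Libraries of a pool were loaded from the same hashed cells, so a difference made before the split into libraries cannot be told apart from a difference between mice.

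**Figure D4:**
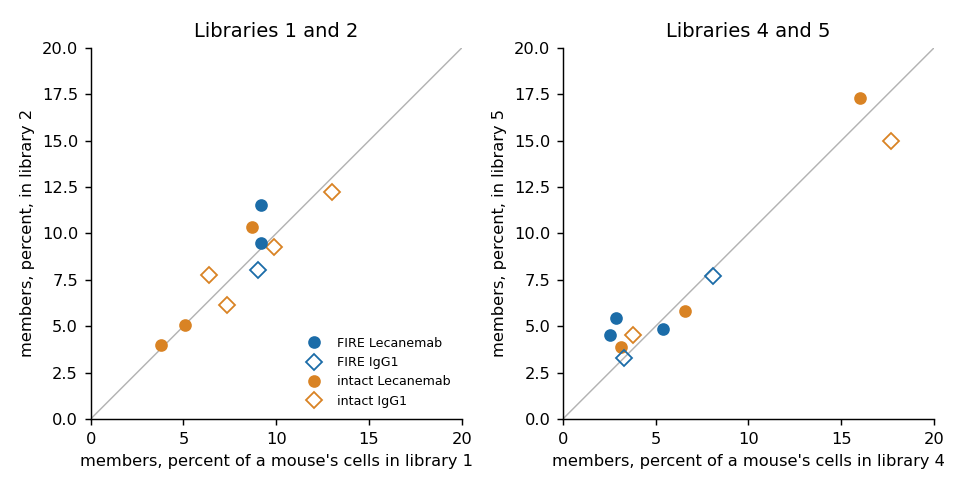
Share of members in percent of human cells in library 1 or 4 (x axis) and in library 2 or 5 (y axis), 1 point per mouse, color by genotype and symbol by antibody, with the line of equality in gray. The points of libraries 1 and 2 lay within 2.34 percentage points of the line, and those of libraries 4 and 5 within 2.67.

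Whether the antibody changed the share was the question of the treated groups. In FIRE mice the shares were 3.47, 4.06, 4.95, 5.13, 9.32 and 10.4% on Lecanemab, a mean of 6.23% ± 2.91 (SD, n = 6), and 3.30, 6.66, 7.91, 8.48 and 15.3% on IgG1, a mean of 8.33% ± 4.39 (SD, n = 5). The groups overlapped over nearly their whole range, and the pool-adjusted difference was -1.88 percentage points (exact permutation within pools, two-sided, p = 0.444, smallest possible p = 0.0111). Within pools it was 1.39 points in the first, -6.04 in the second and -1.38 in the third.

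In intact mice the shares ran from 3.47 through 6.20 to 16.6% on Lecanemab, a mean of 8.31% ± 5.07 (SD, n = 7), and from 2.05 through 6.90 to 16.4% on IgG1, a mean of 7.95% ± 4.73 (SD, n = 8). The difference was -0.03 points (exact permutation, two-sided, p = 0.9905), with -2.81, 9.79 and -1.52 points in the pools, and its sign changed with 7 of the settings in the closing section. FIRE and intact mice differed by -0.70 points (exact permutation within pool and treatment, p = 0.732), and the effect of the antibody differed between genotypes by -1.84 points (permutation p = 0.588). The spread between mice exceeded each of these differences, which does not show that the groups were alike.

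**Figure D5:**
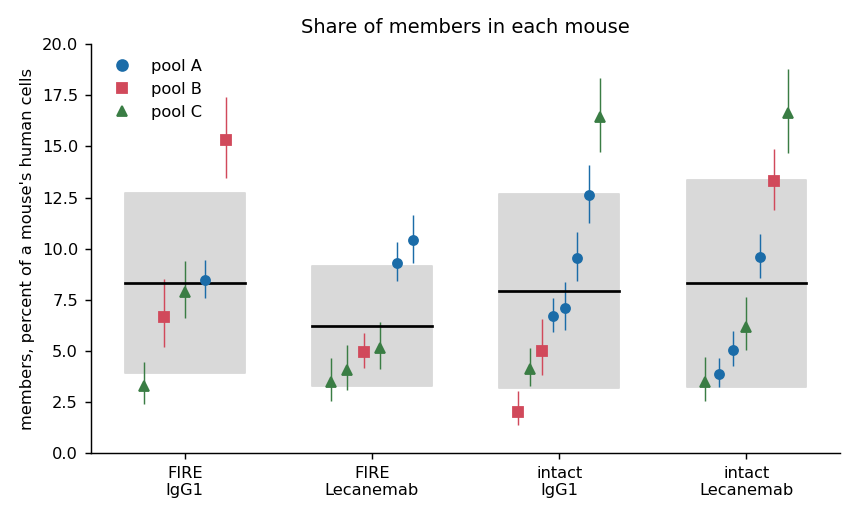
Share of members in percent of human cells (y axis) for each mouse by genotype and antibody (x axis), with Wilson 95% intervals as error bars, color and symbol by pool, a black line for the group mean and a gray band for ± 1 SD. The 4 groups overlapped, with means of 8.33% and 6.23% (IgG1 and Lecanemab, FIRE mice) and 7.95% and 8.31% (intact mice).

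Mouse-level measures were set beside the share, centred on the pool, over 26 mice. Of 6 measures (cells, median UMIs, mitochondrial share, mouse UMI share, heat shock level and chemokine-high share) none passed after adjustment. By Pearson's r the largest was the mitochondrial share, with r = -0.41 (permutation p = 0.0740, adjusted p = 0.444) and rho = -0.38 (permutation p = 0.0755, adjusted p = 0.226). Without the 2 mice farthest from the median r was -0.46, and within the pools it was -0.30, 0.28 and -0.70, so the sign differed between pools. By rank the mouse UMI share was slightly larger, with rho = -0.39 (permutation p = 0.0661, adjusted p = 0.226) and r = -0.32 (permutation p = 0.194, adjusted p = 0.583).

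Gene levels within the members were then compared between antibodies with edgeR over UMI sums per mouse. None of 7163 genes passed an adjusted p of 0.05 in FIRE mice (0% called), in intact mice, or for the difference between genotypes. At an unadjusted p under 0.05, 177 of the 7163 genes were higher and 142 lower with Lecanemab in FIRE mice, and 156 and 149 in intact mice. By chance alone a share of 0.05 of the genes would pass that level, and the counts of each genotype were below this share. DESeq2 and voom also called 0 genes in each comparison. SPP1 was not called, at 7249 ± 5749 CPM (SD, n = 6) on Lecanemab and 3763 ± 944 CPM (SD, n = 5) on IgG1 in the members of FIRE mice, and at 7928 ± 4263 CPM (SD, n = 7) and 5397 ± 1204 CPM (SD, n = 8) in those of intact mice. The highest FIRE mouse on Lecanemab held 18840 CPM, and the groups overlapped. Of all settings, only edgeR without the filter on low counts, a fit over 21102 genes, called SPP1. It was then higher on Lecanemab, with log2 differences of 0.92 in FIRE mice and 0.57 in intact mice. The filter removes other genes and leaves the counts of SPP1 as they are. The call thus came with a change in the other genes of the fit, and its cause was not tested.

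The 7 score genes chose the members, so their levels within members are held within a range by the rule. They were among the 7163 genes of the fit, where the rule limits their outcome, and their values are given as a description only. FOS stood at 3824 ± 566 CPM (SD, n = 6) on Lecanemab and 3730 ± 352 CPM (SD, n = 5) on IgG1 in FIRE mice, and JUN at 1048 ± 239 and 1248 ± 126 CPM. The log2 differences lay between -0.30 (JUN) and 0.07 (FOS) in FIRE mice and between -0.18 (TSC22D3) and 0.10 (JUN) in intact mice.

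Genes of smallest p are given as values without a call. In FIRE mice DNAJB1 stood at 167 ± 100 CPM (SD, n = 6) on Lecanemab and 355 ± 203 CPM (SD, n = 5) on IgG1, a log2 difference of -0.88 ± 0.21 (SE, edgeR adjusted p = 0.772). RNASE1, a secreted ribonuclease and border macrophage marker, stood at 460 ± 140 and 253 ± 54.3 CPM, a log2 difference of 0.80 ± 0.22 (SE, edgeR adjusted p = 0.952). CD163, also a macrophage marker, had a difference of 1.86 and MS4A7 of 0.40. In intact mice VSIG4, a complement receptor, stood at 526 ± 158 CPM (SD, n = 7) on Lecanemab and 328 ± 64.5 CPM (SD, n = 8) on IgG1, a log2 difference of 0.67 (edgeR adjusted p = 0.0904). S100A9, a calgranulin of myeloid cells, had a difference of 2.85 (edgeR adjusted p = 0.0904) at a median of 7.74 and 2.72 CPM. With single mice left out, the edgeR adjusted p of VSIG4 ran from 0.0323 to 0.672 over 26 fits. That of S100A9 ran from 0.0324 to 0.321 over only 13 fits, as the gene was not tested in the others.

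A treatment effect particular to the members would appear as a difference between their effect and that in the other cells of the same FIRE mice. Of 11495 genes 1 was called (0.0087%), RGCC, a regulator of the cell cycle induced by complement, with a log2 difference of -5.44 ± 1.08 (SE, edgeR adjusted p = 0.0184). The UMIs behind the call in members were few. Members of the 5 IgG1 mice held 17, 0, 0, 1 and 0 RGCC UMIs, while members of the 6 Lecanemab mice held 0, 1, 0, 0, 0 and 0. The other cells went the opposite way, with 86, 24, 120, 35, 13 and 146 UMIs in the Lecanemab mice and 22, 1, 19, 49 and 2 in the IgG1 mice, in the same order of mice and at unequal depth. RGCC was not called without the IgG1 mouse of 17 UMIs (AB16), nor without the Lecanemab mice AB13 or AB93, whose other cells held 86 and 146 UMIs. DESeq2 and voom called 0 genes (unadjusted p under 0.05 in 83 and 182 genes higher, 107 and 219 lower). Of 11495 genes, these counts were also below the share of 0.05 that would pass by chance.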

How the data were processed

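Single-cell 3' RNA sequencing of hashed, sorted cells was analysed from raw UMI counts, which the authors deposited for each barcode over the genes of both species and the hashtags. Per the labels and headers they were made with Cell Ranger 6.1.2 (6.0.1 in the headers of libraries 1 and 2) on GRCh38 and mm10 together, and the submitters' processing notes name Seurat 4.2.3. Human cells had at least 1000 human UMIs, at most 5% mouse UMIs and a singlet call from HTODemux (Seurat 5.3.0, quantile 0.99). The hashtag labels of library 4 conflict, so its mice were mapped by hashtag name through library 5. The automatic threshold of Scrublet (scanpy 1.11.5) marked 1 cell, so doublets within a mouse were kept, and cells of the highest scores were left out in an alternative.

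UMI counts were summed per mouse over members and over other cells. Ratios used TMM-scaled CPM with a prior count of 2. Named genes were the genes of the scores, the 2 to 4 largest ratios of each list at a mean of at least 20 CPM, the 15 highest and 10 lowest ratios, and, where fewer genes passed a treatment test, the 5 of smallest p per direction. Members and lists were chosen with earlier results of these data known. Treatment was tested with edgeR 4.0.16 (quasi-likelihood, Benjamini-Hochberg adjustment, pool as covariate, mice with at least 20 members), with DESeq2 1.42.0 and limma 3.58.1 as alternatives. Shares were tested by permutation within pools. Human UMIs per library set the precision, and intervals cover counting error only. Replicates are mice. Scripts were tested on simulated data. Gene positions are from GENCODE on GRCh38 and promoters from RefSeq. Genes named beyond this rule were chosen from the lists and calls after their values were seen.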

Additional observations from a re-analysis of the deposited data

Results flagged for a closer look

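A mouse lay apart from the rest of its group, by Dixon's criterion at 95%, in 7 of 116 groups of values tested, and chance sets apart about 1 in 20 groups. No cause was tested for any of them.

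Among levels in members, FOS was 4091 CPM in the intact IgG1 mouse AB39, with the next mouse of the group at 3704 CPM. FOSB was 515 CPM in the FIRE IgG1 mouse AB90, with the next at 449 CPM. EGR1 was 448 CPM in the FIRE Lecanemab mouse AB92, with the next at 182 CPM, and the highest EGR1 value in the report is this mouse. SPP1 was 18840 CPM in the FIRE Lecanemab mouse AB93, with the next at 6419 CPM.

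Among log2 ratios of members over other cells, FOSB was 1.66 in the FIRE Lecanemab mouse AB93, with the next at 1.80. CD69 was 2.10 in the intact Lecanemab mouse AB45, with the next at 1.43. DNAJB1 was 0.19 in the intact Lecanemab mouse AB05, with the next at 0.79.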

How the results depend on the processing

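The share in FIRE mice kept its sign under all 11 other settings, from -3.94 to -1.49 points (p 0.311 to 0.556), and with each mouse left out in turn, from -3.04 to -0.390 points. In intact mice the difference was near 0 and turned positive with the top 10% (0.0628 points) or top 20% (0.487) of the immediate-early score, chemokine-high cells kept (0.391), thinning (0.136), a minimum of 2000 UMIs (0.120), a filter at 2.5 median absolute deviations (0.0404) and without library 4 (0.219), and it ran from -2.28 to 1.65 points with a mouse left out. FIRE against intact mice ran from -1.69 (without AB86) to 0.329 points (without AB49), and the difference of the effects from -3.53 (without AB39) to 0.404 (without AB40).

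Without a filter on low counts edgeR called 31, 28 and 13 genes in FIRE mice, in intact mice and for the difference of the effects, and 6 for members minus other cells. SPP1 was among those of FIRE mice (edgeR adjusted p = 2.24e-16) and of intact mice (edgeR adjusted p = 9.76e-09), and no other setting called it. FIRE mice fitted alone gave 1 gene (IFIT2) and intact mice alone 1 (VSIG4). For members minus other cells DESeq2 and voom gave 0. With a mouse left out the counts were 0 to 1 in FIRE mice (NUPR1 without AB57), 0 to 2 in intact mice (S100A9 and VSIG4), 0 to 1 for the difference (RNASE1 without AB57) and 1 to 9 for members minus other cells, where RGCC was lost without AB16, AB13 or AB93. Fewer tested mice are part of the construction of these fits, and the cause was otherwise not tested.

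Calls of members against other cells were 11 higher and 0 lower after thinning, where fewer genes were tested, 77 and 7 against cells outside the chemokine-high set, 19 and 2 at a 2-fold limit, and 41 to 51 and 4 to 7 with a mouse left out. CCL3, CCL3L1 and CCL4L2 changed sign as given in the report (1.35, 1.52 and 0.30).

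Score genes whose difference was near 0 changed sign. DUSP1 in FIRE mice was 0.0011 with voom, 0.0476 without library 4, 0.0155 with at least 50 members, 0.0833 with chemokine-high cells kept, and -0.0550 to 0.0397 with a mouse left out. TSC22D3 in FIRE mice ran from -0.114 to 0.0442 with a mouse left out. DUSP1 in intact mice was -0.0018 with library totals, -0.0761 without library 4, -0.0073 without a pool term, -0.0620 with chemokine-high cells kept, and -0.0411 to 0.0686 with a mouse left out. FOS in intact mice was -0.0107 without library 4 and -0.0113 with chemokine-high cells kept, and IER2 -0.0300 with at least 50 members and -0.0035 to 0.0799 with a mouse left out.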
